A study of Mus musculus with 4 samples.

Results

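The genes described here make up the lysosome of microglia, the resident macrophages of the brain. They are 44 genes in all, chosen by name, though with earlier results of these data known. They comprise 11 proteases (10 cathepsins and legumain), 11 hydrolases and their cofactors, 6 proteins of the lysosomal membrane, 15 subunits of the vacuolar proton pump (V-ATPase) and the transcription factor gene Tfeb. A probe set naming that gene alone was found for 41 of the 44, out of 17145 protein-coding genes with such a probe set. Ctsd and Glb1 share their probe sets with a neighbouring gene, and Atp6v0c had no named probe set here; these 3 were not analysed. Ctsk and Gla lay under the floor used for expressed genes, a mean of 7.15 log2 units over the 4 arrays, which left 39 expressed members among 8573 expressed genes.

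Microglia were isolated from the whole brain of male C57BL/6J mice on the day after an intranasal challenge. The 4 groups were PBS (the control group) and OVA (the allergy group), each at postnatal day 30 (P30) and postnatal day 70 (P70). Material of 4 samples was pooled in each group and measured on 1 expression array, so each value is that of a pool and no group has a spread. No test was made, a difference has no replicate check, and the number of arrays limits the precision. Levels are log2 of the deposited intensity, and a difference is a log2 difference between 2 arrays. Each array enters 1 OVA comparison and 1 age comparison, so an array with an unusual value shows in both. A gene is counted as higher or lower from 1.5-fold, which is 0.585 log2 units. In RNA from a pool of cells, fewer cells of a type and less RNA per cell cannot be told apart.

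Lysosomes are the acidic compartments in which cells break down what they take up and what they recycle from within. The V-ATPase pumps protons into them with energy from ATP. Its V1 sector, in the cytosol, binds ATP, and its V0 sector, in the membrane, carries the protons. The cathepsins cut proteins, the hydrolases remove sugars, lipids and sulfates, and the membrane glycoproteins line the compartment and move cholesterol and ions across it. In microglia this machinery digests synaptic material, dying cells and lipoproteins, and it prepares peptides for presentation. TFEB is known to bind a CACGTG element near the start of many of these genes.

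The arrays carried limits that bear on these values. The brightest probe sets piled up at an upper limit, which lay at 19.88 on the PBS array and 19.74 on the OVA array of P30, and at 19.93 on both P70 arrays. No member was at its array's limit, and Ctss came nearest, 0.84 below. The median of all expressed genes differed by -0.01 for OVA minus PBS at P30, by 0.09 at P70, by 0.24 for P70 minus P30 in PBS and by 0.37 in OVA. Members are read against these shifts. Of 10 listed microglial markers, 9 were found and all 9 were expressed; all 7 neuronal and all 6 lymphocyte markers found had means under the floor. Summed intensity of the 10 neutrophil markers was 70251 on the PBS array of P30 and 22704 on the OVA array, against 885264 and 752827 at P70. The 7 monocyte markers found summed to 1981, 2114, 21674 and 24343 in the same order, and the 10 markers of border-associated macrophages to 3124, 2773, 4052 and 10065. Of the 4 choroid plexus markers Ttr alone was expressed, and their sums were 386, 865, 415 and 4368; Ttr was 3.65-fold higher in OVA at P30 and 17.3-fold at P70. No marker was listed at 0. Their part in any difference given here was not tested.

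The promoters are shown first, because a CACGTG element is known near the start of many, though not all, of these genes. In the RefSeq promoter windows (build GRCm38.p6, from 250 bases before a gene's start to 50 after it), 36 of the 44 genes had an entry. CACGTG, which reads the same on both strands, was present in 15 of the 36 (41.7%) and in 8.09% of all 27025 genes with such windows. The longer TCACGTGA, which contains CACGTG, was in 7 of 36 (19.4%) against 1.12% of all genes. Of the palindromes that extend TCACGTGA by 1 base at each end, only that with G before it and C after it was searched. That form was in 0 of 36 against 0.37%. GGAAGT, the core that the myeloid factor PU.1 is known to bind, searched on both strands, was in 16 of 36 (44.4%) against 26.5%. Below are the 150 bases before the start of 5 members, 5′ to 3′ on the gene's strand, with each CACGTG in capitals: Lamp1 (chr8:13159011-13159160, plus strand), Mcoln1 (chr8:3500369-3500518, plus strand), Atp6v0b (chr4:117887330-117887479, minus strand), Atp6v1a (chr16:44139260-44139409, minus strand) and, for contrast, Cd68 (chr11:69666171-69666320, minus strand), which has none in this stretch.
Lamp1: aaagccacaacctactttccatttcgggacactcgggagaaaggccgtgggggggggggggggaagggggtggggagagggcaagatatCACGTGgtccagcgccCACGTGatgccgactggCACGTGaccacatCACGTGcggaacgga
Mcoln1: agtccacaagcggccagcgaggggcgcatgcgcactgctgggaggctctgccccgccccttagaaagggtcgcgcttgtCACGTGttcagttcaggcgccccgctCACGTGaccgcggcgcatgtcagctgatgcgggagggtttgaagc
Atp6v0b: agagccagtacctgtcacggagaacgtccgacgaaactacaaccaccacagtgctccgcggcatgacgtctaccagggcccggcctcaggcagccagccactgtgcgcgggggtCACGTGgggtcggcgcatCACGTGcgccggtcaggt
Atp6v1a: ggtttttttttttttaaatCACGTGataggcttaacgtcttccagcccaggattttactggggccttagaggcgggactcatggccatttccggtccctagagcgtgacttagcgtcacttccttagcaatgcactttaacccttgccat
Cd68: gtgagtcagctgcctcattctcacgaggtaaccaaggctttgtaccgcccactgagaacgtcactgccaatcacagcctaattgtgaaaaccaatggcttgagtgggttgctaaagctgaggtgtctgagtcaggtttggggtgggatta
Lamp1 holds 4 such elements, the first bases of which lie 61, 45, 28 and 15 bases before its start, whereas Mcoln1 and Atp6v0b hold 2 each and Atp6v1a holds 1. Of the 31 expressed members with a promoter entry, the 12 with CACGTG had a median P70 minus P30 difference of 0.24 in PBS (range -0.23 to 2.35) and the 19 without it 0.87 (range -0.42 to 2.04). For OVA minus PBS at P70 both medians were 0.22. A match is a description of these letters and not of binding.

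The OVA comparisons set the allergy group beside its control at either age. At P30 Cd68 alone of the 39 expressed members was at least 1.5-fold apart, lower in OVA, against 0.817% of all expressed genes; none was higher, against 0.56%. The direction was nevertheless uneven: 29 of 39 members had a lower value in OVA, with a median of -0.16 beside -0.01 for all expressed genes. A higher value in OVA was seen in 25.6% of members, beside 46.5% of all expressed genes. At P70 Lamp1 alone was at least 1.5-fold higher in OVA, against 3.73% of expressed genes, and none was lower, against 1.11%. There 33 of 39 members had a higher value in OVA (84.6%, beside 65.0% of all expressed genes), with a median of 0.20 beside 0.09. Counted from 1.2-fold, 8 members were lower and 3 higher at P30 (8.45% and 5.65% of all genes), and 12 were higher and 1 lower at P70 (22.9% and 7.45%). Taken relative to the trend of all genes along the level, the members' medians were -0.09 at P30 and 0.05 at P70, and 11 of 39 members lay above 0 at P30 (49.7% of all expressed genes) and 23 of 39 at P70 (50.5%). At P70 77.1% of all genes past 1.5-fold were higher in OVA as deposited, against 52.8% after median centring. As deposited, most members, 24 of 39, lay below PBS at P30 and above it at P70. Another 9 lay above at both ages and 5 below at both. Atp6v1d alone lay above at P30 and below at P70, by under 0.1 log2 units each way. These joint patterns were not counted over all expressed genes.

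**Figure D1:**
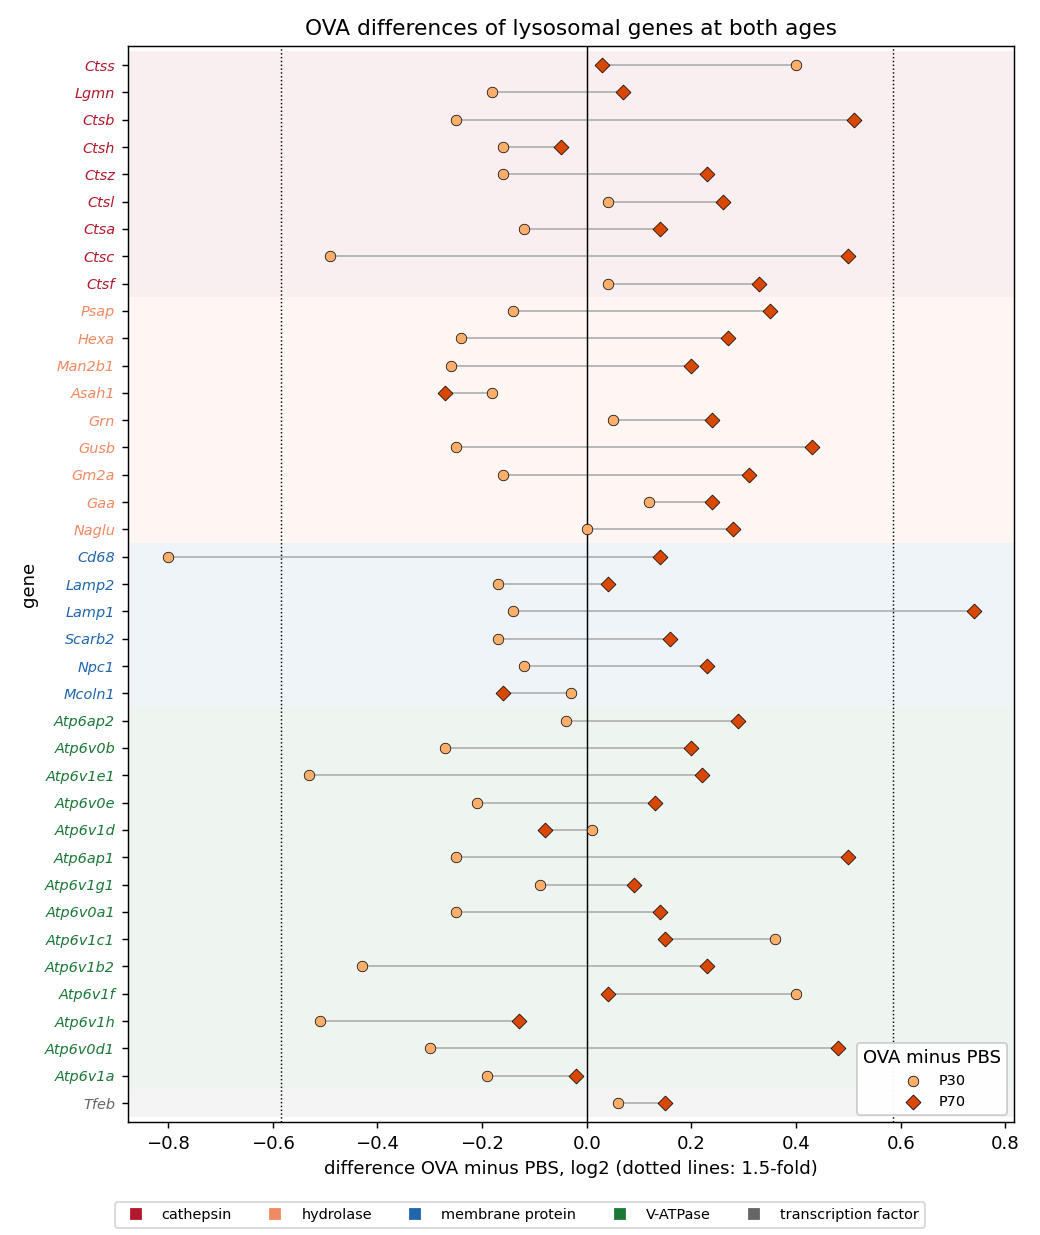
Difference OVA minus PBS in log2 units (x axis) for each of the 39 expressed lysosomal genes (y axis, coloured by class), at P30 (circles) and P70 (diamonds); dotted lines mark 1.5-fold and each point is a difference between 2 arrays. Most circles lie left of 0 and most diamonds right of it, with Cd68 at P30 (-0.80) and Lamp1 at P70 (0.74) the 2 points past 1.5-fold.

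The age comparisons set P70 against P30 within each treatment. In PBS, 19 of 39 (48.7%) were at least 1.5-fold higher at P70, against 27.6% of all expressed genes, and none was lower, against 2.62%. In OVA, 23 of 39 (59.0%) were at least 1.5-fold higher, against 37.3%, and none lower, against 4.04%. The medians were 0.58 and 0.87, beside 0.24 and 0.37 for all expressed genes. From 1.2-fold, 22 were higher and 2 lower in PBS (48.2% and 9.27% of all genes), and 33 higher and none lower in OVA (57.2% and 9.96%). As deposited, 18 members were at least 1.5-fold higher in both treatments, 5 in OVA alone and 1, Ctss, in PBS alone. The other 15 stayed within 1.5-fold in both. These patterns were not counted over all expressed genes, and whether the 2 treatments differ in them was not tested. Ctss differed by 0.68 in PBS as deposited and by 0.10 relative to the trend along the level. Bright genes as a whole stood higher at P70, and most members are bright. Above a stricter floor of 8.41, 44.9% of all 4287 genes were at least 1.5-fold higher in PBS and 58.5% in OVA, beside 19 (54.3%) and 23 (65.7%) of the 35 members there. Medians above that floor were 0.52 and 0.71 for all genes, beside 0.68 and 1.08 for the members, so the gap to the other genes was narrower. Of all expressed genes past 1.5-fold, 91.3% were higher in PBS and 90.2% in OVA as deposited, against 58.9% and 55.8% relative to the trend along the level. Relative to that trend 7 members remained at least 1.5-fold higher in PBS and 7 in OVA (17.9% each, beside 11.2% and 12.6% of all expressed genes). On the same scale 9 came out lower in PBS (23.1%, beside 7.84%) and 5 in OVA (12.8%, beside 10.0%). Those lower in both were Ctsa, Grn, Man2b1 and Psap, with Atp6ap1, Atp6v0a1, Ctsb, Gusb and Lamp1 in PBS alone and Asah1 in OVA alone. The neutrophil and monocyte marker sums given above were also several-fold higher on both P70 arrays.

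**Figure D2:**
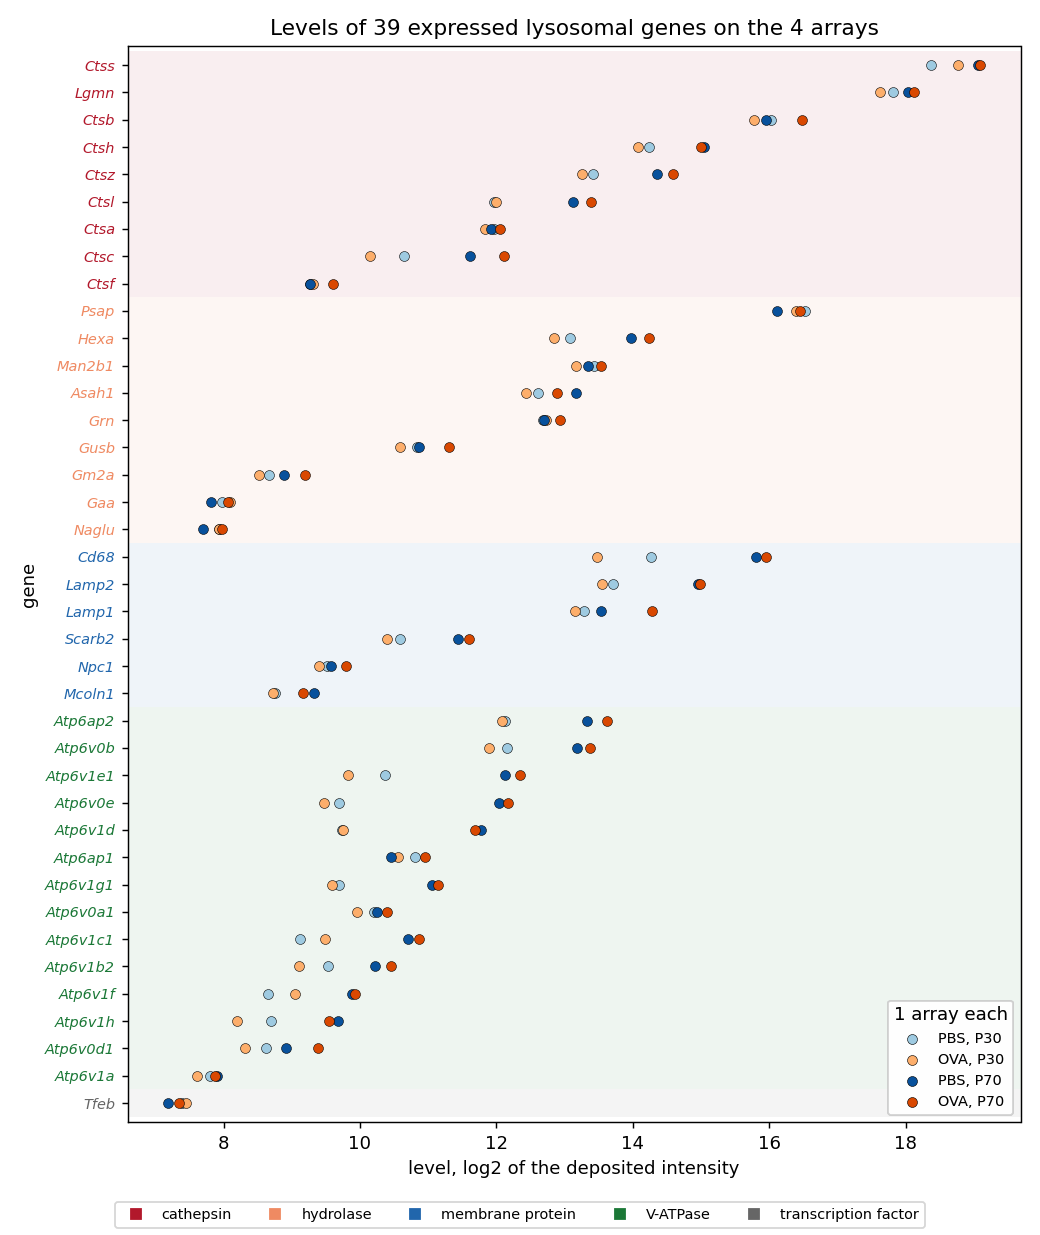
Level on each of the 4 arrays, as log2 of the deposited intensity (x axis), for the 39 expressed lysosomal genes (y axis, grouped by class and ordered by mean level within it); each point is 1 array, and levels of different genes are not comparable. In Atp6v0e, Atp6v1d, Atp6v1e1 and Cd68 both P70 points (dark) lie more than 1 log2 unit to the right of both P30 points (pale).

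V-ATPase subunits showed the widest age difference of the 4 classes. Of the 14 expressed, 10 (71.4%) were at least 1.5-fold higher at P70 in PBS and 11 (78.6%) in OVA. Among all expressed genes the shares were 27.6% and 37.3%. The class medians were 1.11 and 1.36. Relative to the trend along the level 6 (42.9%) and 5 (35.7%) remained at least 1.5-fold higher, beside 11.2% and 12.6% of all expressed genes. As deposited, 7 of the 8 subunits of the V1 sector were at least 1.5-fold higher in each treatment, with medians of 1.30 in PBS and 1.36 in OVA. Of the 4 V0 subunits 2 were in PBS and 3 in OVA, with medians of 0.66 and 1.29. The V1 subunit under 1.5-fold, the catalytic subunit A (Atp6v1a), differed by 0.10 and 0.27. Atp6v1d, a subunit of the central stalk, stood at 9.74 in PBS and 9.75 in OVA at P30, then 11.77 and 11.69 at P70. Atp6v1e1, of the peripheral stalks, stood at 10.36, 9.83, 12.12 and 12.34 in the same order, and Atp6v1g1, its stalk partner, at 9.69, 9.59, 11.06 and 11.15. For all 3 both P70 arrays lay above both P30 arrays, by 2.04 in PBS and 1.94 in OVA for Atp6v1d, 1.76 and 2.51 for Atp6v1e1, and 1.37 and 1.55 for Atp6v1g1.

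The remaining V1 subunits described here also separated the ages as deposited. Atp6v1c1, which links the 2 sectors, read 9.12 and 9.48 in PBS and OVA at P30, and 10.70 and 10.86 at P70. Atp6v1f, another stalk subunit, was at 8.65, 9.05, 9.88 and 9.92. These were the V-ATPase members with positive OVA differences at P30, 0.36 and 0.40, apart from 0.01 for Atp6v1d. Atp6v1b2, an ATP-binding subunit found in most tissues and brain, was at 9.53, 9.11, 10.22 and 10.45, and Atp6v1h, a regulatory subunit, at 8.70, 8.20, 9.68 and 9.55. Both were lower in the OVA array at P30, by 0.43 and 0.51, under the 1.5-fold mark. As deposited, both were at least 1.5-fold higher at P70 than at P30 in both treatments. Relative to the trend along the level, Atp6v1b2 differed with age by 0.07 in PBS and 0.54 in OVA, and Atp6v1h by 0.50 and 0.78. On that scale Atp6v1c1 differed by 0.96 and 0.49, and Atp6v1f by 0.75 and 0.15.

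Within the V0 sector the subunits diverged. Atp6v0e, the small membrane subunit e, had the largest age difference of all members: it stood at 9.69 in PBS and 9.47 in OVA at P30, then 12.04 and 12.17 at P70, 5.11-fold higher in PBS and 6.46-fold in OVA. Atp6v0b, a proteolipid of the proton-carrying ring, stood at 12.16, 11.89, 13.18 and 13.38, about 1 log2 unit higher at P70 in PBS (1.02). In contrast Atp6v0a1, the large subunit that forms the proton path, stood at 10.21, 9.96, 10.25 and 10.39 as deposited. Atp6v0d1, which couples the sectors, was at 8.62, 8.31, 8.92 and 9.39. As deposited it reached 1.5-fold with age in OVA (1.08) and not in PBS (0.30). Relative to the trend along the level, the age differences in PBS and OVA were 1.58 and 1.71 for Atp6v0e and 0.17 and 0.44 for Atp6v0b. On that scale they were -0.64 and -0.46 for Atp6v0a1, and -0.07 and 0.52 for Atp6v0d1. The accessory subunits also diverged. Atp6ap2, known as the prorenin receptor, stood at 12.12, 12.08, 13.33 and 13.62, higher on both P70 arrays. Atp6ap1 stood at 10.81, 10.56, 10.45 and 10.96, where the ages overlap. As deposited, it was the sole V-ATPase member with a lower value at P70 in PBS (-0.35). Relative to the trend along the level, the age differences in PBS and OVA were 0.35 and 0.49 for Atp6ap2, and -1.09 and -0.58 for Atp6ap1. In OVA minus PBS at P30 all 4 V0 subunits had lower values in OVA, between -0.30 and -0.21. At P70 all 4 had higher ones as deposited, between 0.13 and 0.48, as had 65.0% of all expressed genes. Relative to the trend along the level they lay between -0.29 and -0.17 at P30. At P70 that scale gave -0.03 for Atp6v0a1, 0.03 for Atp6v0b, -0.04 for Atp6v0e and 0.34 for Atp6v0d1.

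**Figure D3:**
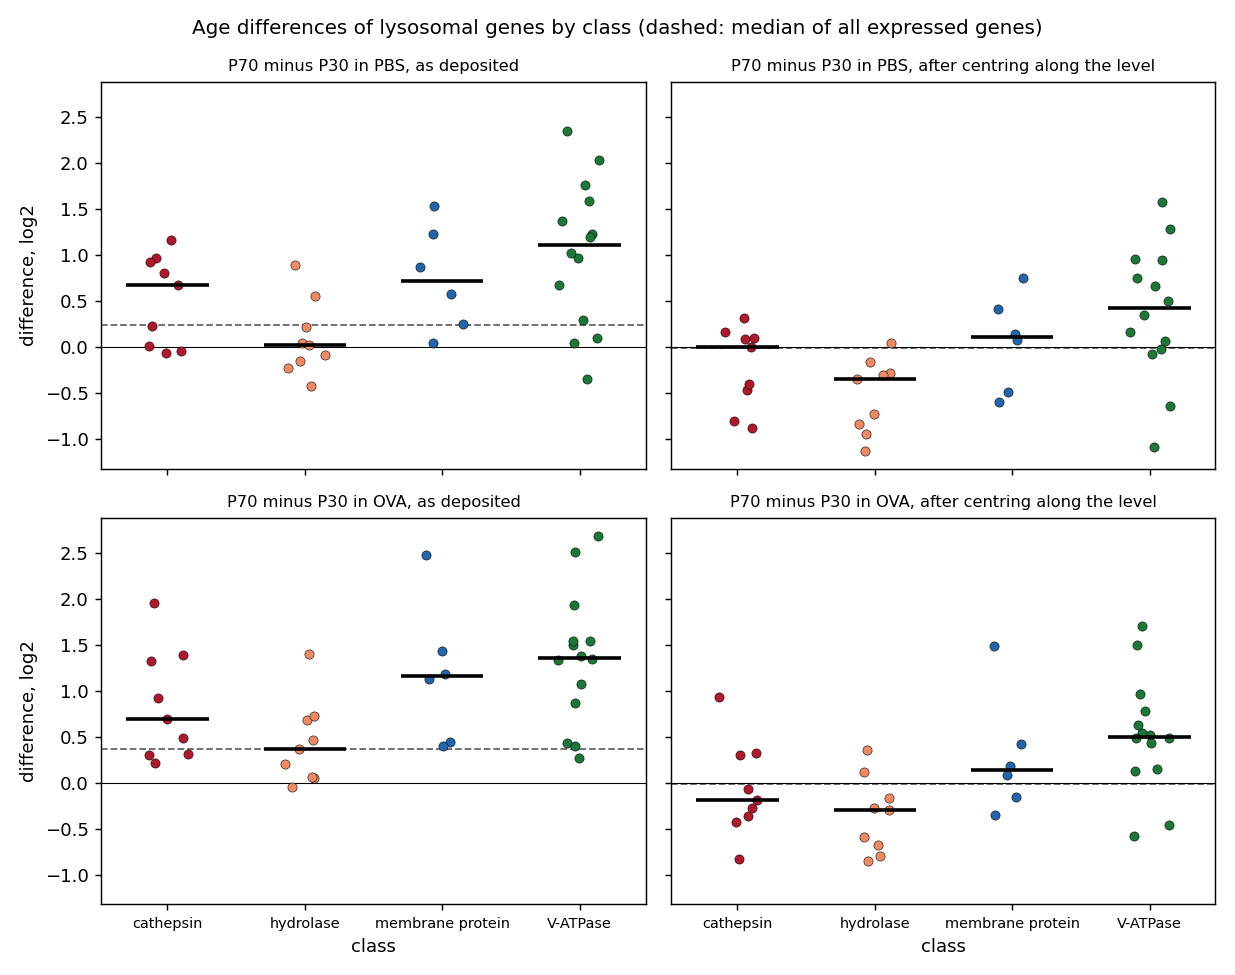
Differences P70 minus P30 in log2 units (y axis) for each expressed gene of the 4 classes (x axis, 1 point a gene, bars at the class median), in PBS (top) and OVA (bottom), as deposited (left) and relative to the trend of all expressed genes along the level (right); the dashed line is the median of all expressed genes. V-ATPase medians stay above 0 on the right (0.43 and 0.50), whereas the hydrolase medians lie below it (-0.35 and -0.29).

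Among the membrane proteins, Cd68 set itself apart in every comparison but that of OVA at P70. Cd68, a heavily glycosylated protein of macrophage lysosomes widely used as a sign of phagocytic activity, stood at 14.27 in PBS and 13.47 in OVA at P30, then 15.81 and 15.95 at P70. The P30 arrays were therefore 1.74-fold apart, lower in OVA, while the P70 arrays differed by 0.14. With age it was 2.91-fold higher in PBS and 5.60-fold higher in OVA. Its P30 difference stayed at 1.5-fold or more under each of 4 other scalings of the arrays, between -0.79 and -0.68. The neutrophil marker sum was also lower in OVA at P30, as given above.

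Lamp1 and Lamp2, the abundant glycoproteins that coat the inner face of the lysosomal membrane, differed from each other. Lamp1 stood at 13.29 in PBS and 13.15 in OVA at P30, then 13.54 and 14.28 at P70, so that the OVA array at P70 lay above the other 3. It was 1.67-fold higher in OVA than in PBS at P70. This stood just under 1.5-fold relative to the trend along the level (0.57) and after quantile normalization over expressed genes (0.58). The sums of border-associated macrophage markers, 4052 in PBS and 10065 in OVA, and of choroid plexus markers, 415 and 4368, were higher on the same array. Lamp2 stood at 13.71, 13.55, 14.95 and 14.98, with both P70 arrays above both P30 arrays and 0.04 between OVA and PBS at P70. Scarb2, which carries glucocerebrosidase to the lysosome, had the same order of arrays at 10.58, 10.40, 11.44 and 11.60. Npc1, which exports cholesterol, was at 9.51, 9.40, 9.57 and 9.80 and Mcoln1, a calcium channel, at 8.75, 8.72, 9.33 and 9.17; neither was 1.5-fold apart in any comparison. All 6 membrane proteins had a lower value in OVA at P30.

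As deposited, the cathepsins divided into those with an age difference and those without. In PBS 5 of 9 were at least 1.5-fold higher at P70, and in OVA 5 of 9. That is 55.6% in each, beside 27.6% and 37.3% of all expressed genes. Relative to the trend along the level 0 of 9 remained so in PBS and 1 of 9 in OVA, beside 11.2% and 12.6%. Cathepsin C, an aminopeptidase that activates granule proteases, stood at 10.64 in PBS and 10.15 in OVA at P30, then 11.61 and 12.11 at P70. Its OVA differences were of nearly equal size and opposite direction at the 2 ages, -0.49 and 0.50, and its age difference was 1.96 in OVA and 0.97 in PBS. Cathepsin L, a broad cysteine protease, was at 11.96 in PBS at P30, 0.04 more in OVA, and at 13.13 and 13.39 at P70. Cathepsin Z, a carboxypeptidase, was at 13.42, 13.26, 14.36 and 14.59. Both P70 arrays lay above both P30 arrays for each. Cathepsin H, an aminopeptidase, had the same separation of ages at 14.24, 14.08, 15.05 and 15.00. Relative to the trend along the level these 3 differed with age by between -0.07 and 0.33 in both treatments, and cathepsin C by 0.17 in PBS and 0.94 in OVA.

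Cathepsin S, the protease that trims the invariant chain in antigen-presenting cells, read 18.38 and 18.77 in PBS and OVA at P30, and 19.06 and 19.09 at P70. Its P30 difference, 0.40, was the sole one past 1.2-fold in the positive direction among the 9 expressed cathepsins, and it lies near the arrays' upper limits. Legumain, the asparaginyl endopeptidase that activates several cathepsins, stood at 17.82, 17.63, 18.04 and 18.12, under 1.5-fold in all comparisons. Cathepsin B, a cysteine protease, was at 16.03, 15.78, 15.96 and 16.48. The OVA array at P70 was the high one, 0.51 above PBS, and the P70 minus P30 difference was 0.70 in OVA and -0.06 in PBS. Cathepsin A (11.96, 11.84, 11.92 and 12.06), which protects beta-galactosidase, and cathepsin F (9.26, 9.31, 9.27 and 9.60) stayed under 1.5-fold in all comparisons as deposited. Relative to the trend along the level, cathepsin A was lower with age by -0.88 in PBS and -0.83 in OVA. Ctsk, known from osteoclasts, lay under the floor at 5.73 to 6.15.

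As deposited, the hydrolases were the class with the smallest median age difference. Relative to the trend along the level 4 of 9 (44.4%) were at least 1.5-fold lower at P70 in each treatment, and none was higher. On that scale 7.84% of all expressed genes were lower in PBS and 10.0% in OVA, and 11.2% and 12.6% were higher. In PBS only Hexa of 9 was at least 1.5-fold higher at P70 (11.1%, beside 27.6% of all genes), with a class median of 0.02. In OVA 3 of 9 were, Hexa, Gusb and Gm2a (33.3%, beside 37.3%), with a median of 0.37, equal to that of all expressed genes. Hexa, which encodes a subunit of beta-hexosaminidase, stood at 13.08 in PBS and 12.84 in OVA at P30, then 13.98 and 14.24 at P70. Gusb, beta-glucuronidase, was at 10.83, 10.58, 10.87 and 11.30, with the OVA array at P70 above the other 3. Asah1, acid ceramidase, was at 12.61, 12.43, 13.17 and 12.89, and was the single hydrolase with a lower value in OVA at P70 (-0.27). Man2b1, acid alpha-mannosidase, read 13.43, 13.17, 13.34 and 13.54. Gaa, acid alpha-glucosidase, and Naglu, which acts on heparan sulfate, lay between 7.70 and 8.10 on all arrays, within 1 log2 unit of the floor. Gla, alpha-galactosidase A, lay under it at 5.89 to 6.17.

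The cofactors of the hydrolases gave a similar picture. Psap, the precursor of the saposins that present lipids to hydrolases, stood at 16.52 in PBS and 16.39 in OVA at P30, then 16.11 and 16.45 at P70. Its PBS array at P70 was the lowest of the 4, giving the most negative age difference of all members (-0.42) and an OVA difference of 0.35 at P70. That age difference turned to 0.29 after quantile normalization over all probe sets, where the OVA difference at P70 was 0.68, and it was -1.13 relative to the trend along the level. Grn, progranulin, whose loss is known to disturb microglial lysosomes, stood at 12.68, 12.73, 12.70 and 12.93 as deposited. Relative to the trend along the level it differed with age by -0.84 in PBS and -0.85 in OVA. Gm2a, the activator of ganglioside breakdown, was at 8.67, 8.52, 8.89 and 9.20. With all 9 hydrolases and cofactors the median OVA difference was -0.16 at P30 and 0.27 at P70, the largest class median at P70.

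**Figure D4:**
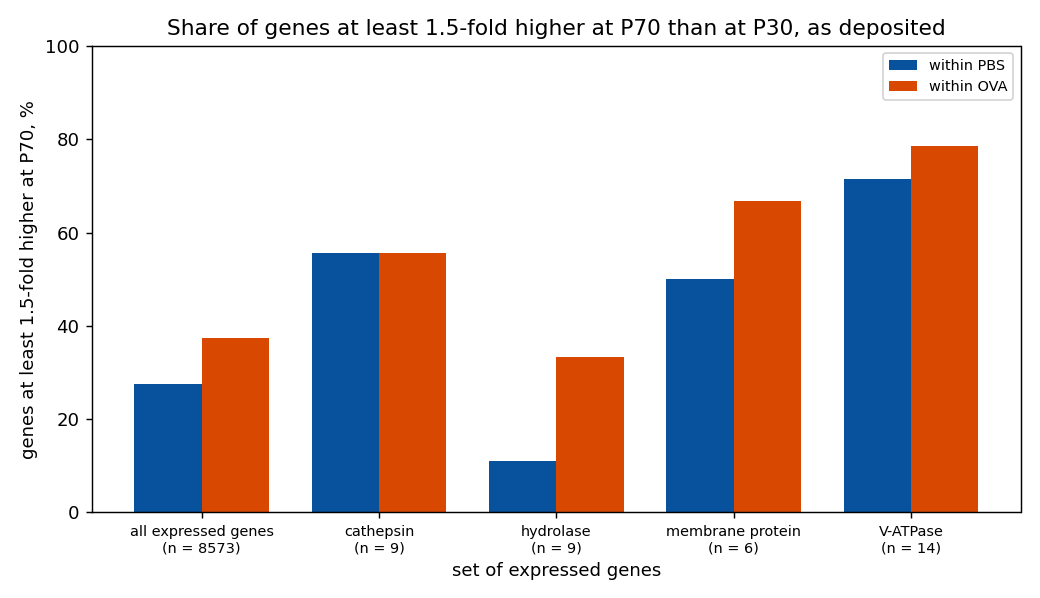
Share of genes at least 1.5-fold higher at P70 than at P30 (y axis, %) among all expressed genes and the 4 classes (x axis, with the number of genes), within PBS (blue) and within OVA (orange), as deposited. V-ATPase stands at 71.4% and 78.6%, hydrolases at 11.1% and 33.3%, and all expressed genes at 27.6% and 37.3%.

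Set side by side, the class medians for P70 minus P30 were 1.11 for V-ATPase, 0.72 for membrane proteins, 0.68 for cathepsins and 0.02 for hydrolases in PBS, and 1.36, 1.16, 0.70 and 0.37 in OVA. As deposited, the order of the classes was the same in both treatments, which share no array. After quantile normalization over all probe sets the cathepsin median lay above that of membrane proteins, 0.93 against 0.63 in PBS and by under 0.1 in OVA. Relative to the trend along the level the medians were 0.43, 0.11, 0.00 and -0.35 in PBS and 0.50, 0.14, -0.18 and -0.29 in OVA. V-ATPase remained above 0 and the hydrolases lay below it, while the cathepsin median changed sign in OVA. Under all 5 scalings 7 members were at least 1.5-fold higher at P70 in PBS (Atp6v0e, Atp6v1c1, Atp6v1d, Atp6v1e1, Atp6v1f, Atp6v1g1 and Cd68) and 7 in OVA (Atp6v0e, Atp6v1d, Atp6v1e1, Atp6v1g1, Atp6v1h, Cd68 and Ctsc), 5 of them in both. Of all expressed genes 9.38% in PBS and 9.94% in OVA were higher under all 5, beside 17.9% of members in each. Of those 5, 4 are V-ATPase subunits and the fifth is Cd68. The genes within a class are not replicates, and the difference between classes was not tested.

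As deposited, the difference between the OVA effects, P70 minus P30, was above 0 in 33 of 39 members, with a median of 0.34. Among all expressed genes it was above 0 in 63.7%, with a median of 0.10. Among members it was largest in Ctsc (0.99), Cd68 (0.94), Lamp1 (0.88), Atp6v0d1 (0.78), Ctsb (0.76), Atp6v1e1 (0.75) and Atp6ap1 (0.75). It was most negative in Ctss (-0.36) and Atp6v1f (-0.36). Ctss and Atp6v1f were each 0.40 above PBS in the P30 pair and 0.03 and 0.04 above it in the P70 pair, the opposite order from most members. In hydrolases the median was 0.46, in V-ATPase 0.36, in membrane proteins 0.34 and in cathepsins 0.26. Relative to the trend along the level this difference was not summarised. On that scale the members' median OVA differences were -0.09 at P30 and 0.05 at P70.

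Tfeb, the transcription factor gene, stood close to the floor at 7.39 in PBS and 7.45 in OVA at P30, then 7.19 and 7.34 at P70. No comparison of it reached 1.2-fold. Its relatives Tfe3 (8.85, 8.80, 8.65 and 8.72) and Mitf (8.87, 8.85, 8.96 and 9.80) were both expressed, and Mitf was 1.79-fold higher in OVA at P70, the OVA array alone standing out. An mRNA level does not report the nuclear entry by which these factors are known to be controlled.

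Other genes of the lysosome, 79 listed and 55 expressed, gave a wider view. At P30 none of the 55 was at least 1.5-fold apart, with a median of -0.07. The highest were Laptm4b (0.50), the mannose 6-phosphate receptor gene M6pr (0.29) and Tmem192 (0.23), and the lowest the acid lipase gene Lipa (-0.56), the cystatin gene Cst7 (-0.51), and Fuca1 and Zkscan3 (both -0.42). At P70 5 were at least 1.5-fold higher in OVA, beside 3.73% of all expressed genes: Mitf (0.84), Cst7 (0.76), the iduronate sulfatase gene Ids (0.75), the stefin B gene Cstb (0.69) and Tmem192 (0.62). Stfa3 (-0.63), of a stefin family with near-identical copies and so uncertain, was lower, followed by Atp6v1g2 (-0.32) and Lipa (-0.28); the median was 0.16. With age 14 of 55 were at least 1.5-fold higher in PBS, beside 27.6% of all expressed genes, and 23 of 55 in OVA, beside 37.3%, with none lower and medians of 0.15 and 0.40, close to those of all expressed genes. Cst3, the cystatin C gene, followed the arrays' upper limits in all 4 comparisons, so its values carry no measured difference. The other V-ATPase isoforms were mostly under the floor, 7 of 10, and the 3 expressed ones (Atp6v0a2, Tcirg1 and Atp6v1g2) had a median age difference of 0.15 in PBS and 0.35 in OVA, none of them 1.5-fold.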

How the data were processed

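RNA was amplified with the WT Pico kit and hybridised to expression arrays, per the labels' protocols. The intensity values were deposited as 1 linear value per probe set and array, as processed by the authors. RMA is listed in the submitters' processing notes beside the software Affymetrix Expression Console 1.4.1, with no role stated. The scaling between arrays and the genome build are not given in the sources used here. The lowest deposited value was 8.35 and the highest 999952, so log2 was taken, with no further normalization. Of 65956 probe sets, 30604 named 1 gene, 2146 several and 33206 none here; 1121 symbols were updated through Entrez IDs or synonyms with a RefSeq table (GRCm38.p6). Protein-coding genes were kept, without numbered predicted genes and without olfactory, vomeronasal and taste receptors. The brightest probe set stood for a gene (228 genes had more than 1), and genes at or above the median of mean levels, 7.15, were called expressed. Each of the 4 groups had 1 array of pooled material, so counts from 1.5-fold and medians are given, beside those of all expressed genes. Named genes were all members, the most extreme of the other lysosomal genes and marker lists. Trends along the level were fitted by lowess (span 0.3, statsmodels 0.14.6). The counting was tested on simulated data. The members and lists were chosen with earlier results of these data known. Scaling, floor, probe set and fold were varied; quantile normalization over expressed genes was added after the values were seen.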

Additional observations from a re-analysis of the deposited data

Results flagged for a closer look

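For 2 members the OVA array lay at least 1.2-fold below PBS at P30 and at least 1.2-fold above it at P70, on the 1 array of each group. The share of all expressed genes that met both conditions was not counted. Taken singly, 8.45% of them were at least 1.2-fold lower at P30 and 22.9% higher at P70. Cathepsin C differed by -0.49 at P30 and by 0.50 at P70, so that its OVA effect was 0.99 higher at P70. Atp6v0d1, a V-ATPase subunit, differed by -0.30 and by 0.48, a gap of 0.78. The difference between the ages was not tested, since there is 1 array in each group.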

How the results depend on the processing

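Medians are given as all members, cathepsins, hydrolases, membrane proteins and V-ATPase, in that order where 5 are listed. With each array centred on its median, they were 0.29, 0.39, -0.27, 0.43 and 0.83 for age in PBS, 0.47, 0.29, -0.03, 0.76 and 0.96 for age in OVA, and 0.10, 0.13, 0.17, 0.05 and 0.04 for OVA at P70; 2 members were then lower with age in PBS. Centred along the level, they were 0.00, 0.00, -0.35, 0.11 and 0.43 for age in PBS, 0.12, -0.18, -0.29, 0.14 and 0.50 for age in OVA, and for OVA at P70 0.05 for all members, 0.07 for cathepsins, -0.01 for membrane proteins and -0.02 for V-ATPase. On that scale 0 members were higher in OVA at P70, 7 and 7 were higher with age in PBS and OVA, and 9 and 5 lower. Quantile normalization over all probe sets gave 0.82, 0.93 and 0.12 for all members, cathepsins and hydrolases with age in PBS, 1.11, 1.21 and 0.59 in OVA, 1.25 for V-ATPase in OVA, and 5 members higher in OVA at P70. Quantile normalization over expressed genes alone, chosen after seeing the data, gave -0.06, -0.13, -0.37, 0.10 and 0.39 for age in PBS, 0.11, -0.11, -0.34, 0.10 and 0.50 for age in OVA, and 0.06, 0.09, 0.14, -0.14 and -0.01 for OVA at P70. It counted 2 members lower in OVA at P30, 0 higher at P70, 7 and 7 higher with age in PBS and OVA, and 8 and 6 lower. Of the 39 members, the sign of the age difference changed in PBS for 9 by median centring, 11 along the level, 8 by quantiles of all probe sets and 12 by quantiles of expressed genes, and in OVA for 9, 16, 2 and 15. For OVA at P70 it changed for 5, 10, 2 and 8, and at P30 for 0, 1, 1 and 2. Among those under 1.5-fold as deposited, Asah1 went from 0.47 to -0.59 in OVA along the level, Man2b1 from 0.37 to -0.67, Atp6ap1 from 0.40 to -0.58, and in PBS Lamp1 from 0.25 to -0.60 and Asah1 from 0.56 to -0.30. The cathepsin medians for age changed sign too. Among members past 1.5-fold as deposited, the sign changed with age in OVA for Ctsb (-0.18 along the level, -0.12 by quantiles of expressed genes), Ctsh (-0.07 and -0.33) and Gusb (-0.27 and -0.34), and age in PBS for Ctsh (-0.13 by those quantiles). The cause was not tested.

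From 1.2-fold the counts were 3 higher and 8 lower for OVA at P30, 12 higher and 1 lower at P70, and 2 lower with age in PBS. Without a floor the age medians were 0.73 for all members and 0.59 for cathepsins in OVA, and 0.45 for cathepsins in PBS; with a stricter floor those of all members were 1.08 in OVA and 0.68 in PBS, beside 0.71 and 0.52 for all genes. Averaging probe sets could not move a count or median of members, because each analysed member had 1 probe set. Leaving out members at the upper limit could not either, as there were none. Both therefore moved 0 of 28 counts and medians. No paired analysis was possible because each group has 1 array. With 1 array a group, the error of any difference is unknown, and signal near the floor (Tfeb, Naglu, Gaa, Atp6v1a) or near the upper limit (Ctss) limits what a difference can show.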
